A study of Mus musculus with 12 samples.

Results

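Among the 7263 splicing clusters with a percent spliced in (PSI), 473 held exactly 4 introns, and in 426 of them the introns did not all share one start or one end. These 426 clusters of mixed splice choices were taken from the positions of the introns alone, and no PSI was used to choose them. The other 47 clusters of 4 introns, in which a single splice site met 4 partners, were left out. A PSI is the share of a cluster's split reads (reads that span an intron) that use one intron, given here as a fraction from 0 to 1, so the 4 values of a cluster sum to 1.

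The PSI came from newly made RNA of female mouse embryonic stem cells of a 129S x Cast cross, labelled with 4-thiouridine (4sU) for 30 min. In all 12 samples the *Mettl3* gene carried a C-terminal FKBP12(F36V) degradation tag and the cells had a doxycycline-inducible *Xist*, so the untreated group (Ctrl) is tagged cells and not wild type. The other group (dTAG) received dTAG-13, which sends the tagged METTL3 to degradation, for 3 h before labelling. The 6 samples of a group came from 2 clones, named C3 and H5, each in triplicate, but the deposited tables give 1 fitted PSI per intron and group over all 6 samples. There is therefore no value per sample, no replicate error and no test for any difference below, and the read depth is unknown. The comparison asks how the choice among the 4 introns differed after 3 h without METTL3, the catalytic subunit that writes N6-methyladenosine (m6A). Cells were grown on feeders, and a PSI that differs through cells of another kind cannot be told apart from one that differs within the stem cells. Of the marker genes listed for this work, 12 of 19 for embryonic stem cells held a cluster anywhere in the table, against 1 of 15 for feeder fibroblasts (*Fn1*) and 1 of 14 for differentiation (*Eomes*). Only *Sall4* and *Tfcp2l1* of these markers held 1 of the 426 clusters. Holding a cluster needs alternative introns as well as reads, so these counts are not a measure of expression. The stem cell markers *Pou5f1* and *Sox2* held none.

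Each intron runs from a donor, the 5′ splice site, to an acceptor, the 3′ splice site. A cassette exon is entered through an acceptor and left through a donor, or skipped by an intron that spans it, and needs 3 introns to describe. One more intron adds another choice to this one, for example a second acceptor at the front of the exon or a second donor at its end. Nearby alternative sites change an exon by a few bases and can leave the reading frame intact or shift it. Distant ones lead to other exons, or to alternative first or last exons.

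Sorted by geometry, 161 clusters had 2 starts, 3 ends and 2 pairs of introns that did not overlap, and 172 had 3 starts, 2 ends and 2 such pairs. Another 36 had 2 starts, 3 ends and 1 such pair, and 34 had 3 starts, 2 ends and 1 such pair. Clusters without such a pair were few, with 14 of 2 starts and 2 ends, 5 of 2 starts and 3 ends and 3 of 3 starts and 2 ends. A single cluster, on chromosome 4 and without a gene name, had 4 starts, 2 ends and 1 pair. Read along the transcript, 403 of the 426 (94.6%) contained a cassette, that is a pair of introns inside a longer one that skips the stretch between them. In 119 of these the stretch was left through 2 exit donors, and in 103 it was entered through 2 acceptors. In 56 the exit donor also joined a second acceptor, and in 55 the entry acceptor was also reached from a second donor. In 34 the skipping donor reached a second acceptor, and in 36 the skipping acceptor was reached from a second donor. The stretch need not be a known exon. Annotated exons made up 119 of 238 such stretches with 2 exit donors and 132 of 206 with 2 entry acceptors. They made up 52 of 55 with entry from a second donor and 52 of 56 with exit to a second acceptor. Where skipping had a second acceptor or a second donor, the counts were 21 of 34 and 23 of 36. The 23 clusters without a cassette comprised 14 in which 2 donors were each joined to 2 acceptors (2 by 2) and 9 of other overlapping introns.

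The splice sites of the clusters on which the results below turn are shown first, because the second choice in many of them lies only a few bases from the first. Sequences are from mm10, 5′ to 3′ along the transcript. In acceptor windows the capitals are the last 2 bases of each of the alternative introns, and in donor windows their first 2 bases.
Dnajb6 acceptors (chr5:29764379-29764411, plus strand): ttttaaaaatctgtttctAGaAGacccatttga
Golgb1 acceptors (chr16:36886111-36886143, plus strand): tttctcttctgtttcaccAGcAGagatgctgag
Tle3 acceptors (chr9:61401833-61401865, plus strand): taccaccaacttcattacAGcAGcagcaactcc
Racgap1 acceptors (chr15:99642958-99642991, minus strand): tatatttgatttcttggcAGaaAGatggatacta
Aktip acceptors (chr8:91131139-91131172, minus strand): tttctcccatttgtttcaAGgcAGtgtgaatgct
Tipin acceptors (chr9:64288088-64288123, plus strand): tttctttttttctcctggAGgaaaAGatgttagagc
Zfp534 acceptors (chr4:147678316-147678363, minus strand): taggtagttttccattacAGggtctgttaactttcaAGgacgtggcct
Rps19 acceptors (chr7:24888262-24888321, plus strand): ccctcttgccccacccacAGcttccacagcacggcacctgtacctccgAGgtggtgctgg
Tipin donors (chr9:64281638-64281662, plus strand): cgctgtctagGTgagGTgagaccgg
Ube2j2 donors (chr4:155955551-155955575, plus strand): ggacttcacgGTgagGTgtggtagc
Map4k4 donors (chr1:40007521-40007549, plus strand): caagcctgcgGTaagtactGTgtaaaatc
Gnl3 donors (chr14:31016803-31016836, minus strand): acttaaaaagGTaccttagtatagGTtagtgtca
Pvt1 donors (chr15:62244832-62244867, plus strand): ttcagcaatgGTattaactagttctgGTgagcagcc

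In *Dnajb6*, *Golgb1* and *Tle3* the acceptors form a tandem, a pair of AG ends 3 nt apart, and in *Racgap1* and *Aktip* they are 4 nt apart. In *Tipin* the donors are 5 nt apart and the acceptors 6 nt apart, and in *Ube2j2* the donors are also 5 nt apart. The stretch between the acceptors lies in coding exons of *Dnajb6*, *Tle3*, *Zfp534* and *Rps19* in GENCODE vM21, and in untranslated exons of *Golgb1*, *Racgap1*, *Aktip* and *Tipin*. *Map4k4*, which encodes a stress-activated kinase, has a cassette exon of 9 nt (chromosome 1, 40008331 to 40008339) in addition to donors 9 nt apart. That coding exon is printed in capitals with 15 intron bases on each side.
Map4k4 exon (chr1:40008316-40008354, plus strand): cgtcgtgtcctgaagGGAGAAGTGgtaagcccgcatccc

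The distance between the alternative sites differed with the kind of site. Of the 403 cassette clusters, 193 had a second acceptor, at a median distance of 32 nt, and 210 a second donor, at a median distance of 234 nt. Acceptors lay exactly 3 nt apart in 42 clusters (21.8%), whereas none of these donor pairs was 3 nt apart. Donors lay exactly 4 nt apart in 11 clusters (5.24%) and acceptors in 8 (4.15%). Within 30 nt were 94 of the acceptor pairs (48.7%) and 46 of the donor pairs (21.9%), and over 1000 nt apart were 30 acceptor pairs (15.5%) and 77 donor pairs (36.7%). Of the pairs within 300 nt, the distance was a multiple of 3 for 81 of 151 acceptor pairs (53.6%) and 36 of 109 donor pairs (33.0%). Without the pairs at 3 nt it was so for 39 of 109 acceptor pairs (35.8%). A single donor pair lay 1 nt apart, in *Cacybp*, where 1 of the 4 introns has neither GT-AG nor GC-AG ends.

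**Figure D1:**
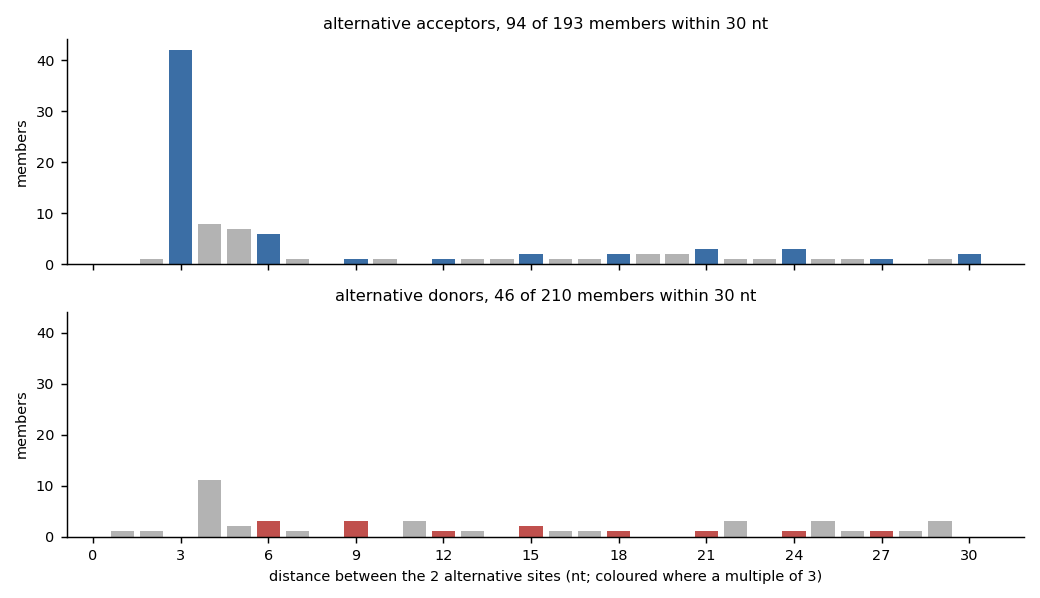
Number of cassette members (vertical axis) by the distance in nt between their alternative acceptors (top) or donors (bottom), for distances up to 30 nt; bars are coloured where the distance is a multiple of 3. The acceptor bar at 3 nt holds 42 members and the donor bar at 4 nt holds 11.

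Counting the 2 by 2 and other overlapping clusters as well, 49 acceptor pairs lay 3 nt apart with a summed PSI of at least 0.05 in both groups. The upstream acceptor was the more used in 37 of the 49 in Ctrl, with a median share of 0.788 that ranged from 0.0954 to 0.993. Over all clusters of the series it was the more used in 441 of 617 such pairs (71.5%), with a median of 0.746. The last 3 intron bases of the upstream acceptor were CAG in 27, TAG in 16 and AAG in 6 of the 49 pairs (55.1%, 32.7% and 12.2%, against 56.9%, 27.1% and 13.3% of the 617). The median upstream share in Ctrl was 0.805 after CAG, 0.797 after TAG and 0.255 after AAG, with overlapping ranges and only 6 pairs in the last group. Over the 617 pairs the medians were 0.786, 0.777 and 0.471. After dTAG-13 the upstream share differed by a median of 0.0135, was higher in 25 of the 49 pairs, and differed by at least 0.1 in 1 of them (2.04%), *Golgb1*. Over the 617 pairs it was higher in 282 (45.7%) and differed by at least 0.1 in 17 (2.76%), so the 49 lay near the background.

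The clusters mostly split their reads over several introns. The most used intron had a median PSI of 0.556 in Ctrl and 0.557 in dTAG, and it reached 0.9 or more in 19 clusters (4.46%). An effective number of introns, 2 to the power of the Shannon entropy of the 4 PSI, counts how many introns would give the same spread if used equally. Its median was 2.60 in Ctrl and 2.59 in dTAG, and it was higher after dTAG-13 in 211 of 426 (49.5%). It ran in Ctrl from 1.06 to 3.94, the highest value being that of *Tsc2*, a tumour suppressor that restrains mTORC1. All 4 introns of *Tsc2* lay between 0.179 and 0.278 in Ctrl and between 0.125 and 0.337 in dTAG, and its alternative acceptors are 3 nt apart. In *Rps4x* and *Rpl39*, which encode ribosomal proteins, a single intron held 0.991 and 0.989 in Ctrl and 0.988 and 0.987 in dTAG. At the other end of usage, 76 clusters (17.8%) had an intron under 0.01 in Ctrl, and 135 (31.7%) had all 4 introns at 0.05 or more.

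After dTAG-13 the PSI of most clusters differed little. The largest absolute difference of any of the 4 introns (dTAG minus Ctrl) had a median of 0.0284 over the 426 clusters, and was under 0.05 in 317 (74.4%) and under 0.01 in 65 (15.3%). The median was 0.0214 over all 7263 clusters, 0.0266 over the 2495 mixed clusters of 3 introns and 0.0264 over the 507 mixed clusters of 5 or more. The largest difference was at least 0.1 in 29 of the 426 clusters (6.81%), against 4.63% of all clusters, 4.53% of mixed clusters of 3 introns, 5.52% of mixed clusters of 5 or more and 4.33% of clusters around one shared site. These shares lie near each other, and the largest difference is taken over more values in clusters with more introns. Where the added intron was another way to skip, 4 of 34 clusters (second acceptor) and 5 of 36 (second donor) reached 0.1. Where it was a second exit, entry or partner of the cassette, 6 of 103 (2 acceptors), 8 of 119 (2 donors), 3 of 55 (entry from a second donor) and 1 of 56 (exit to a second acceptor) did.

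**Figure D2:**
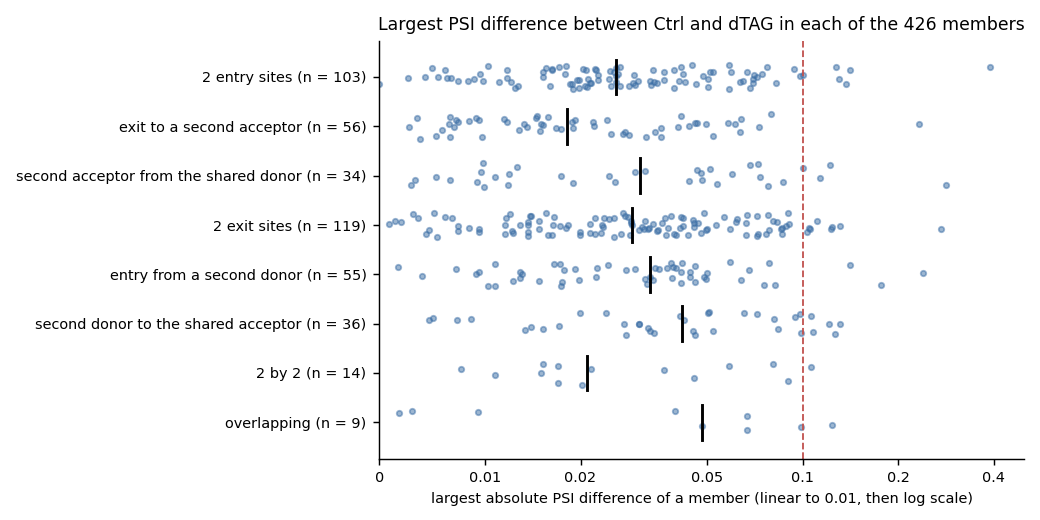
Largest absolute PSI difference between Ctrl and dTAG (horizontal axis, linear up to 0.01 and logarithmic beyond) of each of the 426 members, by structure; each point is 1 cluster, vertical offsets are random, black bars are medians and the dashed line marks 0.1. The points reach 0.389 in *Zfp534*, and the medians lie between 0.0181 and 0.0484.

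The largest difference was in *Zfp534*, a zinc finger gene on the minus strand of chromosome 4. Its cassette exon of 127 or 109 nt, a coding exon (147678217 to 147678343), is entered at the 2 acceptors 18 nt apart that are printed above. The intron that leaves the exon had a PSI of 0.0800 in Ctrl and 0.469 in dTAG. The intron into the upstream acceptor had 0.470 and 0.271, that into the downstream acceptor 0.0599 and 0.0345, and the intron that skips the exon, which is not annotated, 0.391 and 0.225. The last 3 introns start at the same donor and had the same ratio of dTAG to Ctrl (within 0.001 on the natural log scale), so relative to each other only the intron that leaves the exon differed in the fitted values. The share of the upstream acceptor was 0.887 in both groups. The summed entering junctions had a PSI of 0.529 and 0.305 and the leaving junction 0.0800 and 0.469. These PSI differed in opposite directions, but the entering junctions did not differ relative to the skipping intron.

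*Rps19*, which encodes a protein of the small ribosomal subunit, came next. Its 81-nt exon (chromosome 7, 24886107 to 24886187), annotated as coding in a nonsense-mediated decay transcript, can be skipped to either of 2 acceptors 30 nt apart. The intron into the exon had a PSI of 0.286 in Ctrl and 0.0718 in dTAG, and the intron out of it 0.101 and 0.0527. Skipping to the upstream acceptor had 0.582 and 0.865, while skipping to the downstream acceptor had 0.0316 and 0.0109. Inclusion of the exon, the mean of the entering and leaving junctions over that mean plus the skipping introns, was 0.240 in Ctrl and 0.0664 in dTAG. Both junctions of the exon were lower after dTAG-13 and the annotated skipping intron was higher.

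In *Gm14230*, a long noncoding RNA gene on chromosome 2, the intron that skips the cassette had a PSI of 0.682 in Ctrl and 0.408 in dTAG, and it is the only annotated one of the 4. The unannotated entering intron had 0.120 and 0.220. The exits at donors 841 nt apart had 0.0959 and 0.165 upstream and 0.102 and 0.207 downstream. All 3 unannotated introns were higher after dTAG-13, and the share of the upstream exit was 0.485 and 0.443.

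*Ptges3*, which encodes the HSP90 co-chaperone p23, has a 90-nt coding cassette exon (chromosome 10, 128072068 to 128072157) that is reached from 2 donors 947 nt apart. The annotated intron into it had a PSI of 0.539 in Ctrl and 0.328 in dTAG, and the unannotated one from the upstream donor 0.0845 and 0.0926. The leaving intron had 0.284 and 0.523, and the skipping intron 0.0930 and 0.0566. The most used intron thus changed from an entering to a leaving junction of the same exon. The annotated entering intron and the skipping intron start at the same donor and had nearly the same ratio of dTAG to Ctrl. Relative to each other they thus differed little. *Cbx3*, which encodes the heterochromatin protein HP1 gamma, had the same structure with donors 771 nt apart and a 53-nt coding exon. Its annotated entering intron had 0.669 and 0.492, its leaving intron 0.181 and 0.299, and its skipping intron 0.0857 and 0.105. A cluster on the minus strand of chromosome 13 (74437987 to 74493849), which overlaps *E430024I08Rik* and *Zfp825*, had 0.461 and 0.229 for an intron that enters and 0.305 and 0.492 for one that leaves, but the stretch between them is 21441 nt long and is not an annotated exon.

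**Figure D3:**
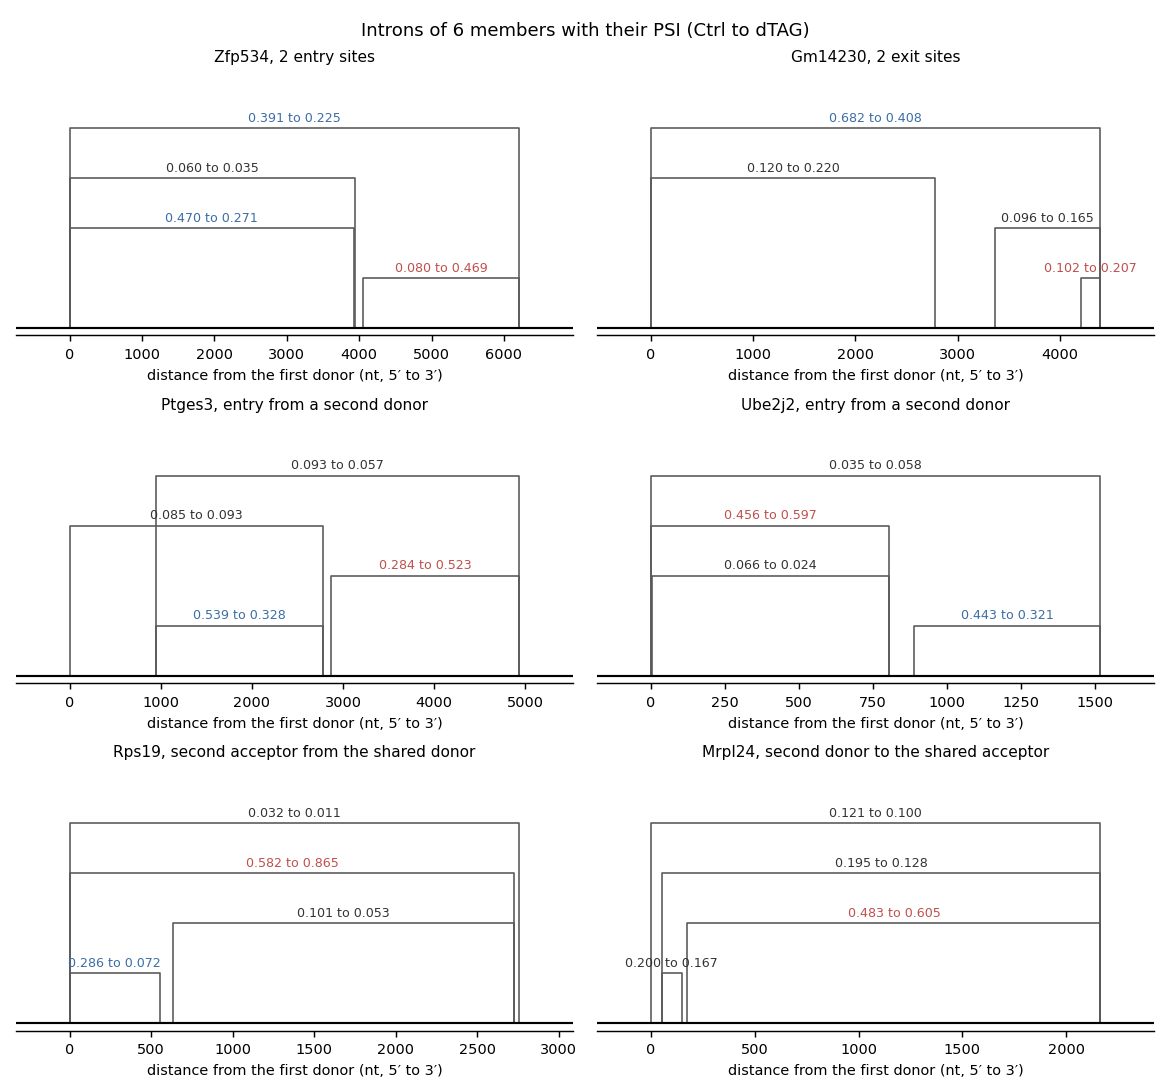
Introns of 6 members drawn to scale along the transcript, with the distance in nt from the first donor on the horizontal axis; each bracket is 1 intron, bracket height is for legibility only, and the numbers are its PSI in Ctrl and in dTAG, red where it was higher by at least 0.1 and blue where it was lower by at least 0.1. In *Zfp534* and *Ptges3* the red value stands on the junction that leaves the exon and a blue one on a junction that enters it, while in *Rps19* the red value stands on an intron that skips it. The alternative sites of *Ube2j2*, 5 nt apart, almost coincide at this scale.

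A PSI difference of opposite sign at the entry and the exit of one cassette, as in *Zfp534* and *Ptges3*, was counted over all cassette clusters. Entering and leaving junctions differed in opposite directions in 291 of 403 clusters (72.2%), and in 1705 of 2411 cassettes of 3 introns (70.7%). The values of a cluster sum to 1, so a junction can be lower because another has more reads. Both differed by at least 0.05 in opposite directions in 22 of the 403 (5.46%, against 4.77% of the 2411), and in the same direction in 5 (1.24%, against 0.664%). The 5 with the same direction were *Gm14230*, *Zfp688*, *Map4k4*, *Srp9* and *Mtif3*. The leaving junctions summed to more than the entering ones in 253 of 403 clusters in Ctrl (62.8%) and in 261 in dTAG (64.8%). In cassettes of 3 introns this was so for 1454 of 2411 in Ctrl (60.3%). The median of leaving minus entering PSI was 0.0515 in Ctrl and 0.0485 in dTAG.

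Inclusion differed by at least 0.1 in 12 of the 403 cassette clusters (2.98%), with 7 higher and 5 lower after dTAG-13. Among cassettes of 3 introns the share was 3.57%, of which 1.7% of all were higher and 1.87% lower. The median inclusion was 0.856 in Ctrl and 0.860 in dTAG, and the median size of the difference was 0.0126, against 0.0161 in cassettes of 3 introns. The 7 clusters with higher inclusion were those of *Gm14230*, *Zfp534*, *Srp9*, *Zfp688*, *Mrpl24*, *Zfp219* and *Brpf3*, and the 5 with lower inclusion were those of *Rps19*, *Wtap*, *Golgb1* and *Polg* and the cluster on chromosome 13. In *Zfp534* the higher inclusion (0.438 and 0.632) came from the leaving junction alone, as the entering and skipping introns had one ratio of dTAG to Ctrl. For *Wtap*, the leaving junctions summed to 0.790 in Ctrl and 0.692 in dTAG, while the entering junction held only 0.0644 and 0.0564. Its inclusion of 0.746 and 0.598 thus rested mostly on the leaving junctions. All 4 introns of *Wtap* are annotated, but no stretch between its entering and leaving junctions is an annotated exon. The same lack of an annotated exon held for *Gm14230*, *Brpf3* and the cluster on chromosome 13. In these clusters inclusion does not stand for that of a known exon. In *Srp9*, which encodes a protein of the signal recognition particle, inclusion was 0.617 in Ctrl and 0.795 in dTAG. Its skipping intron had a PSI of 0.237 and 0.114, and its entering intron 0.630 and 0.691. In *Mrpl24*, a mitochondrial ribosomal protein gene, inclusion of a 26-nt untranslated exon was 0.519 and 0.629, with the leaving intron at 0.483 and 0.605 but the entering intron at 0.1999 and 0.167. Computed from the smaller of entering and leaving junctions, inclusion no longer differed by 0.1 in *Mrpl24* (higher by 0.0366) or in *Rps19* (lower, at -0.0847), and did in the other 10 of the 12. In *Brpf3*, which encodes a scaffold of histone acetyltransferases, inclusion was 0.340 and 0.448, and 3 of the 4 introns are not annotated.

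The second choice was followed through the share of the upstream of the 2 alternative sites, in the 396 cassette clusters where both sites together held at least 0.05 in both groups. Its median absolute difference was 0.0163, beside 0.0129 for inclusion in the same clusters, and it exceeded the difference in inclusion in 219 of 396 (55.3%). The site share differed by at least 0.1 in 37 clusters, 13 of 190 with alternative acceptors (6.84%) and 24 of 206 with alternative donors (11.7%). In the clusters of only 2 introns around one shared site, the share of the upstream site differed by at least 0.1 in 3.49% of 1832 with alternative acceptors and 4.09% of 1614 with alternative donors. The 2 kinds of cluster are not matched, since a pair of sites in the 4-intron clusters can hold as little as 0.05 of the PSI and always holds all of it in clusters of 2 introns, and the difference was not tested. In 31 clusters the site share but not inclusion differed by at least 0.1, in 6 inclusion but not the site share, in 6 both, and in 353 neither. *Zfp534* and *Wtap* were among those with inclusion only, and their 2 sites had the same fitted ratio of dTAG to Ctrl. The 6 with both were *Srp9*, *Zfp688*, *Brpf3*, *Golgb1* and *Polg* and the cluster on chromosome 13. Of the 37, 17 had a higher share of the upstream site after dTAG-13 and the others a lower one. Site share and inclusion are unlike measures, since a share can rest on 0.05 of the PSI and inclusion rests on all 4 introns. Which of the choices differed more is therefore not read from these counts.

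**Figure D4:**
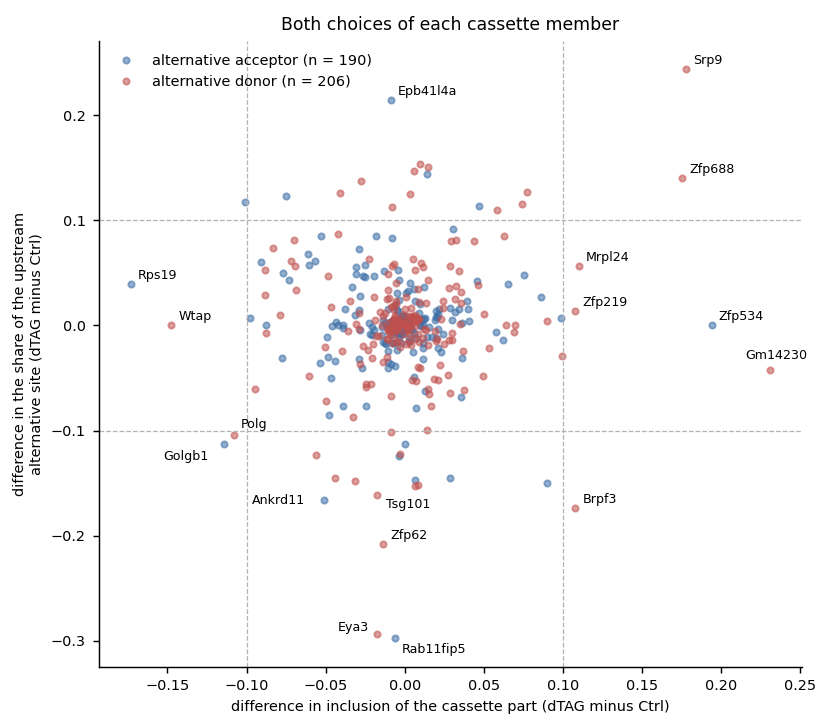
Difference (dTAG minus Ctrl) in inclusion of the cassette (horizontal axis) and in the share of the upstream alternative site (vertical axis) for the 396 clusters with both measured, blue for alternative acceptors and red for alternative donors; dashed lines mark differences of 0.1. *Rab11fip5* and *Eya3* lie far from 0 on the vertical axis only, *Zfp534*, *Wtap* and *Rps19* on the horizontal axis only, and *Srp9* on both.

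*Rab11fip5*, which encodes an effector of the recycling GTPase RAB11, had the largest difference in a site share. The upstream of its acceptors, 300 nt apart inside a coding exon of chromosome 6, had 0.706 of the pair in Ctrl and 0.409 in dTAG. The annotated intron into it had a PSI of 0.282 and 0.154, and the unannotated intron into the downstream acceptor 0.117 and 0.223. The skipping intron had 0.202 and 0.207 and the leaving intron 0.399 and 0.416, so that inclusion was 0.663 and 0.657. *Eya3*, chosen after its values were seen, came next with 0.666 and 0.373 for its upstream exit donor, but both exits together held only 0.106 in Ctrl and 0.0948 in dTAG. In *Ilrun*, also chosen after its values were seen, the exit donors lie 225 nt apart in a coding exon. The upstream donor had 0.132 of the pair in Ctrl and 0.286 in dTAG, while inclusion was 0.857 and 0.867.

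Among the close pairs, the share of the upstream acceptor of *Golgb1*, which encodes the Golgi tether giantin, was 0.564 in Ctrl and 0.451 in dTAG. Its annotated intron to the upstream AG had a PSI of 0.455 and 0.324, and the unannotated intron to the AG 3 nt on had 0.351 and 0.394. The skipping intron had 0.0415 and 0.107, and inclusion was 0.920 and 0.806. In *Aktip*, which encodes a partner of the Hook proteins, skipping to the acceptors 4 nt apart had 0.614 and 0.501 at the upstream and 0.115 and 0.220 at the downstream site. Inclusion of the 81-nt untranslated exon between was 0.156 and 0.163. *Racgap1*, which encodes a GTPase-activating protein of cytokinesis, has acceptors at the same distance and went the other way, with 0.536 and 0.658 for the upstream and 0.0981 and 0.0497 for the downstream one. *Dnajb6*, a co-chaperone gene of the HSP40 family, had 0.787 and 0.928 for the intron to the upstream of its tandem acceptors, 0.0745 and 0.0434 for the other, and 0.0882 and 0.00344 for the leaving intron. In *Ube2j2*, which encodes a ubiquitin-conjugating enzyme of the endoplasmic reticulum, the intron from the upstream of the donors 5 nt apart had 0.456 and 0.597, that from the other 0.0658 and 0.0244, and the leaving intron 0.443 and 0.321. In *Map4k4*, skipping of the 9-nt exon from the upstream donor had 0.522 and 0.649, skipping from the downstream donor 0.106 and 0.105, and inclusion was 0.229 and 0.140.

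Among the clusters with second sites over 1000 nt apart were those of *Cnot4*, *Mitf* and *Zfp688*. *Cnot4*, which encodes the ubiquitin ligase of the CCR4-NOT complex, has entry acceptors 22018 nt apart. The intron to the near one had a PSI of 0.282 in Ctrl and 0.185 in dTAG, that to the far one 0.127 and 0.159, and the leaving intron 0.291 and 0.428. In *Mitf*, a transcription factor gene with several first exons, the skipping introns start at donors 15883 nt apart. The unannotated one from the downstream donor had 0.386 and 0.516, and the annotated one 0.262 and 0.271. In *Zfp688* the intron from the upstream of 2 exit donors 1395 nt apart had 0.293 and 0.424 and the skipping intron 0.239 and 0.117. Among clusters with close donors, *Pvt1*, a long noncoding RNA gene beside *Myc*, had 0.345 and 0.468 for the intron into its cassette exon and 0.366 and 0.287 for the skipping one, and the share of the upstream of its exit donors 16 nt apart was 0.421 and 0.425. *Mtif3*, which encodes a mitochondrial initiation factor, had 0.483 and 0.375 for the skipping intron from the upstream of donors 11 nt apart.

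The most used intron differed between Ctrl and dTAG in 20 clusters (4.69%, against 4.68% of all clusters and 6.97% and 8.28% of mixed clusters of 3 and of 5 or more introns and 2.71% of clusters around one shared site). In 9 of the 20 the largest difference was at least 0.1. In 7 the most used intron led the next by at least 0.05 in both groups, namely *Zfp534*, *Ptges3*, the cluster on chromosome 13, *Zfp688*, *Golgb1*, *Dcun1d5* and *Zfp346*.

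The 14 clusters of 2 donors and 2 acceptors show whether the donor used went with the acceptor used. The log2 odds ratio compares the product of the PSI of the upstream donor to the upstream acceptor and of the downstream donor to the downstream acceptor with the product of the crossed pair, and is 0 where the choices combine independently. Its median was -0.15 in Ctrl and -0.21 in dTAG, it was above 0 in 5 of 14 in each, and its size was under 1 in 13 of 14 in Ctrl. The sign was the same in both groups in 10 of 14. The exception in size was *Gnl3*, which encodes the nucleolar GTPase nucleostemin, with donors 14 nt apart and acceptors 62 nt apart, all within coding exons of chromosome 14. Upstream donor to upstream acceptor had a PSI of 0.599 in Ctrl and 0.589 in dTAG, downstream to downstream 0.0991 and 0.105, and the crossed introns 0.192 and 0.181 and 0.110 and 0.125. The log2 odds ratio was 1.49 and 1.45. *Gnl3* held 3 of the 426 clusters, as did *Ipo7*, and 24 genes held more than 1.

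Both pairs of sites lay within 30 nt in 7 of the 14, and the acceptors lay 3 nt apart in 7. In *Tipin*, which encodes a replication fork protein, the shares of the upstream donor (0.657 in Ctrl, 0.621 in dTAG) and upstream acceptor (0.650, 0.678) combined with log2 odds ratios of 0.02 and -0.32. In *Tle3*, a Groucho-type corepressor gene, they were -0.02 and -0.26, with donors 30 nt and acceptors 3 nt apart in coding exons. *Tpx2*, which encodes a spindle assembly factor, had -0.57 and -0.75, and *Cap1*, which encodes an actin regulator, -0.27 and -0.16. *Rabgap1*, which encodes a RAB GTPase-activating protein, had -0.71 and -0.84 with donors 8845 nt apart, and the share of its upstream acceptor was 0.498 in Ctrl and 0.634 in dTAG. The lowest value in Ctrl, -0.87, was that of a cluster on the minus strand of chromosome 15 (98087134 to 98093282) that carries the names *Senp1* and *Gm26513*, where dTAG gave -0.04. On chromosome 18, *AC131065.2* had 0.70 and 0.54.

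**Figure D5:**
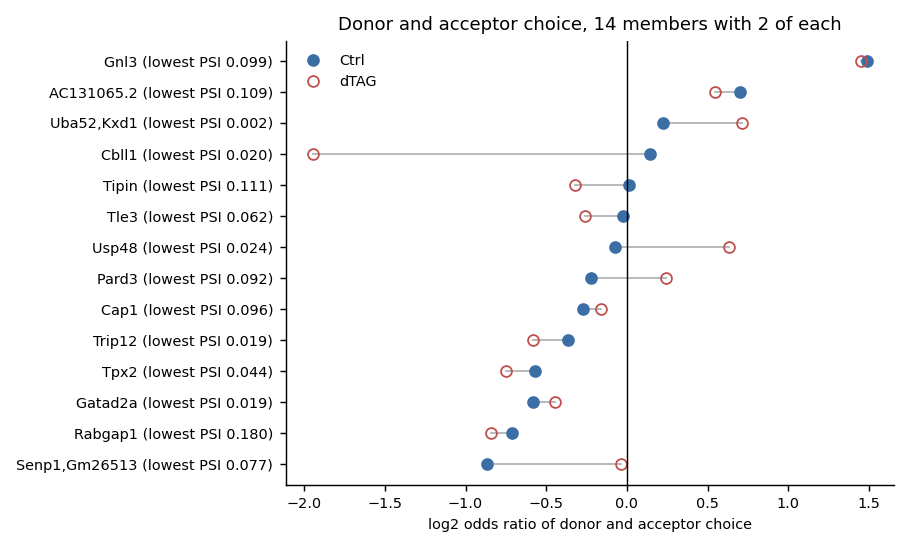
Log2 odds ratio of donor and acceptor choice (horizontal axis) in the 14 members with 2 donors and 2 acceptors, filled blue for Ctrl and open red for dTAG, with the lowest of the 8 PSI beside each name. *Gnl3* stands at 1.49 and 1.45, and *Cbll1* has the longest line, from 0.15 to -1.94.

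*Cbll1* encodes HAKAI, a ubiquitin ligase bound to the m6A writer complex, and was chosen after its values were seen. Its donors are 9 nt and its acceptors 3 nt apart, in coding exons of chromosome 12. The introns from the upstream donor had a PSI of 0.198 in Ctrl and 0.162 in dTAG to the upstream acceptor, and 0.0199 and 0.0559 to the downstream one. From the downstream donor they had 0.703 and 0.718, and 0.0782 and 0.0644. The share of the upstream donor was 0.218 in both groups, and that of the upstream acceptor was 0.902 and 0.880. The log2 odds ratio was 0.15 and -1.94, and the lowest PSI behind it was the 0.0199 in Ctrl.

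In all, 5 of the 426 clusters lay in m6A writer, reader and eraser genes, and 1 of them reached a difference of 0.1 (against 4 of 30 such clusters in the whole table, 13.3%). That one was *Wtap*, which encodes a regulatory subunit of the writer. The intron that skips its cassette, a stretch not inside an annotated exon, had a PSI of 0.146 in Ctrl and 0.251 in dTAG, the intron into it 0.0644 and 0.0564, and the exits at donors 232 nt apart 0.0230 and 0.0202 and 0.767 and 0.672. The last 3 had the same ratio of dTAG to Ctrl (within 0.001 on the natural log scale), so the share of the upstream exit was 0.0291 in both groups. In a cluster on chromosome 5 with the names *Ythdc1*, the nuclear m6A reader, and *Gm43055*, the skipping intron had 0.152 and 0.214. The introns into and out of a 36-nt exon, both annotated for nonsense-mediated decay transcripts, had 0.265 and 0.241 and 0.537 and 0.531. The unannotated intron from the downstream exit donor had 0.0461 and 0.0144. *Igf2bp1* and *Hnrnpa2b1* had largest differences of 0.0422 and 0.00994.

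The other lists held between 2 and 30 of the clusters each, and counts at 0.1 ran from 0 to 4. Zinc finger genes had 4 of 18 clusters at 0.1 or more (17 of 262 in the whole table, 6.49%), in *Zfp534*, *Zfp688*, *Zfp68* and the cluster on chromosome 13. Ribosomal protein and translation genes had 2 of 12 (6.28% of 239), *Rps19* and *Mrpl24*, and membrane trafficking genes 2 of 12 (5.76% of 191), *Golgb1* and *Rab11fip5*. Chromatin regulators had 2 of 30 (3.05% of 394), *Cbx3* and *Brpf3*. Cleavage, polyadenylation and decay genes had 1 of 6 (4.69% of 128), *Cnot4*, and ubiquitin and proteasome genes 1 of 20 (4.16% of 361), *Ube2j2*. None of the 17 clusters in splicing factor genes reached 0.1 (3.3% of 303 in the whole table), with a median largest difference of 0.0221. The count was also 0 among 12 clusters in DNA repair and replication genes (2.75% of 218), 13 in mitosis genes (2.46% of 285), 9 in tRNA synthetase and RNA modification genes (1.98% of 101), 4 in RNA helicase genes (2.78% of 72) and 2 in pluripotency genes (3.51% of 57). At these shares of the whole table, fewer than 1 such cluster falls to each list with a count of 0. Nothing is read from the counts of any list. In *Sall4*, a pluripotency factor, the intron that leaves the cassette had 0.934 and 0.868, and the intron into the downstream of 2 acceptors 41 nt apart 0.0299 and 0.0982. The leaving, skipping and upstream-acceptor introns of *Sall4* had the same ratio of dTAG to Ctrl (within 0.001 on the natural log scale), so relative to them only the downstream-acceptor intron differed. *Tfcp2l1* differed by at most 0.00278.

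Of the 1704 introns, 1193 were annotated with both ends in 1 transcript (70.0%, against 74.7% of all introns in the table). All 4 were annotated in 119 clusters, and none in 7. Unannotated introns had a median PSI of 0.0333 in Ctrl, against 0.311 for annotated ones, and 158 of the 511 joined 2 sites that are each annotated. By structure, the annotated share ran from 41.7% in the 9 other overlapping clusters and 62.5% where skipping reached a second acceptor to 83.9% in the 2 by 2 clusters. The summed PSI of the unannotated introns of a cluster differed by at least 0.1 in 3 clusters (0.704%, against 0.895% of all clusters), with *Gm14230* and *Rab11fip5* higher and *Zfp534* lower after dTAG-13. It was higher in 152 of the 307 clusters that had any (49.5%). Introns found only in nonsense-mediated decay transcripts were present in 62 clusters. Their summed PSI had a median of 0.0746 in both groups, was higher after dTAG-13 in 35 of 62, and differed by 0.05 or more in 3. The same was not counted over all clusters, so nothing is read from these counts.

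Of the 4 structures with a single cassette exon, 113 had one of at most 300 nt in coding sequence, and its length was a multiple of 3 in 44 (38.9%). Median inclusion of those 44 was 0.831 in Ctrl and 0.851 in dTAG, and that of the 69 of other lengths 0.949 and 0.949. Over all 169 such stretches of at most 300 nt, coding or not, the medians were 0.586 and 0.533 for the 69 with a multiple of 3 and 0.886 and 0.891 for the 100 others, so for lengths that are a multiple of 3 the order of Ctrl and dTAG depended on the stretches counted. The shortest cassette of all was 6 nt long, and 14 were of at most 30 nt. Median inclusion was 0.117 and 0.111 (Ctrl and dTAG) where skipping reached a second acceptor, 0.225 and 0.196 where it started at a second donor, and from 0.820 to 0.952 over the other cassette structures and both groups.

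A total of 7 clusters carried no gene name. The one with 4 starts and 2 ends, on the plus strand of chromosome 4 (146828713 to 146892016), had none of its introns annotated. Its PSI were 0.592 in Ctrl and 0.704 in dTAG for an intron of 252 nt, 0.161 and 0.0368 for one of 62296 nt, 0.124 and 0.107 for one of 63304 nt and 0.123 and 0.152 for one of 84 nt. The donors of the introns of 252 and 84 nt lay 168 nt apart, as did the 2 acceptors of the cluster. Whether these junctions are spliced introns was not tested. Of the 7, 2 lay at chromosome Y positions of the reference, with no intron annotated, and the labels call the line female. One of them (90796941 to 90807816) had an entering intron at 0.223 in Ctrl and 0.329 in dTAG and a leaving one at 0.499 and 0.451. The source of these reads was not tested, and feeder cells or related sequence on other chromosomes could not be told apart.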

How the data were processed

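4sU-labelled RNA of 12 samples was sequenced. According to the study's methods the authors mapped reads to mm10 with STAR 2.5.2b, keeping unique alignments, and ran LeafCutter 0.2.7 with both clones pooled. The deposited PSI are fitted fractions, 1 per intron and group. The deposited degrees of freedom, another column used here, equalled the number of introns minus 1 in each cluster. Columns of the authors' own comparison (effect, deltaPSI, log-likelihood ratio, p-value and adjusted p-value) were not used, and differences were computed from the 2 PSI columns.

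Deposited positions are the exon bases beside each intron, as 20422 of 20437 introns (99.9%) then have GT-AG or GC-AG ends. Printed intron, exon and window positions are 1-based and inclusive. Strand was read from the motif, and annotation from GENCODE vM21. The clusters to be named and the gene lists were chosen with earlier results of these data known. Named clusters were the 20 with the largest difference, the 3 largest of each geometry with at least 10 members, 2 by 2 clusters with every PSI at least 0.02 (4 highest, 4 lowest log2 odds ratio in Ctrl), up to 4 of each gene list at 0.1 or more, and geometries with under 3 members. Others named were chosen after their values were seen. Structure calls were tested on simulated data. Python 3.11.15, numpy 2.4.6, pandas 2.3.3, pysam 0.24.0, matplotlib 3.10.9 and samtools 1.23.1 were used.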

Additional observations from a re-analysis of the deposited data

How the results depend on the processing

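No paired analysis was possible because the tables hold no value per sample, and for the same reason no replicate could be left out and depth is unknown. The count of 29 clusters with a largest PSI difference of at least 0.1 became 109 at 0.05 and 5 at 0.2, and was 33 with the summed absolute differences divided by 2 and 24 of 403 clusters with exactly 1 gene name. The median largest difference of 0.0284 became 0.0307 and 0.0278 under the last 2 settings, and did not move when introns under 0.01 were dropped. The 20 clusters with another most used intron became 7 where it had to lead by 0.05. The 12 with an inclusion difference of at least 0.1 became 22 with the smaller of entering and leaving junctions, and 56 at 0.05. The sign also depended on the measure in some clusters. With the mean and then the smaller junction, the inclusion difference was 0.0460 and -0.518 in *Dnajb6*, and -0.0326 and 0.0608 in *Cbx3*. The median log2 odds ratio of -0.15 in Ctrl was -0.23 in the 13 clusters with every PSI at least 0.01 and -0.21 in dTAG, and 4 of 13 and 5 of 14 were above 0. The 3 clusters whose unannotated introns differed by 0.1 became 18 at 0.05, and 2 when an intron of 2 annotated sites counted as annotated. Fitted values can tie introns together: 4 of the 426 clusters had 3 introns, and *Hnrnpdl* all 4, with the same ratio of dTAG to Ctrl.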
